A study of Mus musculus with 4 samples.

Results

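The chromatin around 10 genes for secreted signals was compared between SMC and non-SMC lines by ATAC-seq, in which a transposase cuts the DNA that is not packed away. The genes were the chemokines *Ccl2*, *Ccl5*, *Ccl7*, *Cxcl1*, *Cxcl5* and *Cxcl12* and the cytokines *Il6*, *Il1a*, *Csf1* and *Lif*. All 10 were found among the 21938 protein-coding genes of GENCODE M21 in the mm10 build. Every peak that touched the gene body or the 30 kb on either side of it was counted, which gave 256 peaks over the 4 peak lists. The windows of *Ccl2* and *Ccl7* overlap on chromosome 11, so that the 10 windows form 9 separate stretches of 625.28 kb in all, and these neighboring genes share peaks and are not independent of each other.

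The libraries came from 4 untreated cell lines, 2 SMC lines and 2 non-SMC lines, with 1 library per line. SMC stands for SCLC metastasizing cells, the NCAMhi CD44lo/- cells sorted by FACS from lung tumors of the *RP* mouse (Rb1L/L, Trp53L/L), and non-SMC are the NCAMlo CD44hi cells sorted from such tumors. All 4 lines share these *Rb1* and *Trp53* alleles and a mixed C57Bl/6, Balb-c and S129 background, and were grown in RPMI1640 with FBS. In the paper the mice received adenovirus with Cre through the trachea. Its genotyping found *Rb1* and *Trp53* deleted in both sorted subpopulations. The labels number the lines 1 and 2, and the design text calls lines with the same number paired. The 2 lines of a type stand for 2 sorted lines, not for replicates of 1 line.

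Chemokines are small secreted proteins that guide leukocytes along a gradient through receptors of the G protein-coupled family, and cytokines such as Il6 and Lif act through receptor complexes that signal by STAT proteins. In many cell types the genes of inflammatory cytokines and chemokines are controlled by NF-kappa-B, AP-1 and C/EBP factors, which bind promoters and distal elements. CC chemokine genes lie in clusters on mouse chromosome 11 and most CXC chemokine genes on chromosome 5, so one stretch of chromatin can hold several of them.

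The lists kept 91057 and 153954 peaks for the SMC lines (1 and 2, the order used throughout) and 115837 and 128710 for the non-SMC lines. Lists differ in background. The lowest background in a list is the pileup of reads expected away from peaks. It was 3.26 times higher in non-SMC line 1 than in SMC line 1, whereas in pair 2 it was 2.41 times higher in the SMC line. Strong peaks, here those whose -log10 q was 5 or more, numbered 43984 in non-SMC line 1 and between 13062 and 26312 in the other lists. The sorting markers were checked at their own genes. *Cd44* had 6 and 12 peaks in the SMC lines and 16 in each non-SMC line, whereas *Ncam1* had 10 and 35 peaks in the SMC lines and 38 and 29 in the non-SMC lines, so peak numbers at *Ncam1* did not separate the types. Of 5 neuroendocrine markers 3 had more peaks in both SMC lines and 0 in both non-SMC lines, and 2 of the 5 promoters, among them that of *Chga*, were open in the SMC lines alone and 2 in all 4 libraries. Markers of leukocytes had no promoter with peaks in both non-SMC lines alone and none with peaks in all 4 libraries (0 of 6), and more peaks in both non-SMC lines for 2 genes and in both SMC lines for 2. Of 4 fibroblast markers 3 had more peaks in both non-SMC lines, as did 1 of 3 endothelial markers. Of their promoters 1 endothelial one had peaks in both non-SMC lines alone, and 1 of each list had peaks in all 4 libraries. Over all genes 14.1% had more peaks in both non-SMC lines and 13.5% in both SMC lines. Of all promoters 2.45% had peaks in both non-SMC lines alone, 3.08% in both SMC lines alone and 48.7% in all 4 libraries. The part of other cells in the results below was not tested.

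The sequences of 6 regions picked from these windows are shown first, as 201 bases centered on the summit of a peak. A region is a stretch in which peaks of the 4 lists overlap by at least 1 base, and a non-SMC-only region has a peak in both non-SMC lines but none in the SMC lines. For *Ccl2*, *Ccl5*, *Cxcl5*, *Il6* and *Csf1* the non-SMC-only region with the highest mean rank of fold enrichment in the non-SMC lists was taken, and for *Ccl5* also the strongest region of the locus, which had a peak in all 4 libraries. Capitals mark matches, on either strand, to AP-1 (TGACTCA), TEAD (GGAATG), RUNX (TGTGGT), C/EBP (TTGCNNAA), STAT (TTCNNNGAA) and NF-kappa-B. The genomic + strand of mm10 is given in each.
Ccl2 and Ccl7, distal region, chr11:82067135-82067335, + strand: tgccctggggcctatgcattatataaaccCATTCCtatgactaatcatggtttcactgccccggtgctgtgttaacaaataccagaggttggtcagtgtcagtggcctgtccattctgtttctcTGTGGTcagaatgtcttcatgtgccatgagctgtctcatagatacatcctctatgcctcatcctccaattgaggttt
Ccl5, distal region, chr11:83517173-83517373, + strand: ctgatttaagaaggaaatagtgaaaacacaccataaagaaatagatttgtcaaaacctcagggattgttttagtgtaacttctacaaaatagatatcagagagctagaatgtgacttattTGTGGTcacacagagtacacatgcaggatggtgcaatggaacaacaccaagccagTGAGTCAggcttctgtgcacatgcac
Ccl5, upstream region with a peak in all 4 libraries, chr11:83534801-83535001, + strand: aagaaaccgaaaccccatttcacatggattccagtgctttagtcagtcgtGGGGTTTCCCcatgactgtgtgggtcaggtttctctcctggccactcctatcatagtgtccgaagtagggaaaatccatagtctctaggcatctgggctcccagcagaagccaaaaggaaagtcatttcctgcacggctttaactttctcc
Cxcl5, upstream region, chr5:90745522-90745722, + strand: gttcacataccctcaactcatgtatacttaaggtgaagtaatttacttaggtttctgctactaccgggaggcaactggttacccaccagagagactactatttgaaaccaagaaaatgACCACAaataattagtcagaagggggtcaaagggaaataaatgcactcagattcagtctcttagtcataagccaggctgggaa
Il6, distal region, chr5:30034078-30034278, + strand: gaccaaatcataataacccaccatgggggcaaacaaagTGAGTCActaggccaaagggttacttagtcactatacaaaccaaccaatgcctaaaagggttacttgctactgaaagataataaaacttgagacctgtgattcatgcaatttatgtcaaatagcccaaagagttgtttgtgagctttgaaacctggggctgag
Csf1, upstream region, chr3:107776317-107776517, + strand: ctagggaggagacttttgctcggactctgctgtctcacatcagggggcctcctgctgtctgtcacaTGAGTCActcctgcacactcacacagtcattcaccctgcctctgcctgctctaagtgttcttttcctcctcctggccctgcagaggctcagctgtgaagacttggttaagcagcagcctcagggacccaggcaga

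The regions at *Ccl5* (distal), *Il6* and *Csf1* held the AP-1 letters, written TGAGTCA on the strand shown. The *Ccl5* region upstream of the gene held an NF-kappa-B match without an AP-1 match. RUNX letters were in the regions at *Ccl2* and *Ccl7* and at *Cxcl5*, and also in the distal region of *Ccl5*. The region at *Ccl2* and *Ccl7* held TEAD letters as well. A match describes the letters alone.

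Next the number of peaks was compared. The 10 genes had more open chromatin peaks in the non-SMC lines. The SMC lines had 28 and 51 peaks in the windows and the non-SMC lines 89 and 88. Both SMC lines had fewer than either non-SMC line, so the groups did not overlap. Per 1000000 peaks of its own list, the windows held 307.5 and 331.3 peaks in the SMC lines (319.4 ± 16.8, SD, n = 2) and 768.3 and 683.7 in the non-SMC lines (726 ± 59.8, SD, n = 2). The log2 difference, SMC minus non-SMC, was -1.18, which is 2.27-fold more in non-SMC lines, and it was -1.32 in pair 1 and -1.05 in pair 2. With 2 lines against 2 the two-sided exact permutation test cannot give less than p = 0.333, and it gave that value. The p measures only the spread between these 4 libraries. Whether fewer cells were open at a site or each cell was less open cannot be told apart in such bulk libraries.

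Peaks in these windows were also wider, and more of them strong, in the non-SMC lists. Their median width was 167 and 156 bp in the SMC lines and 360 and 234 bp in the non-SMC lines, against 180 and 178 bp and 246 and 203 bp over all peaks of these lists. By rank of fold enrichment within the list they were not higher throughout, with median percentiles of 55.86 and 40.37 in the SMC lines and 55.81 and 65.11 in the non-SMC lines. They covered 5.416 kb and 10.538 kb in the SMC lines and 37.144 kb and 26.794 kb in the non-SMC lines. Strong peaks numbered 3 in each SMC line and 44 and 22 in the non-SMC lines. Per 1000000 strong peaks of the list these were 229.7 and 114 in SMC lines and 1000 and 876.4 in non-SMC lines, a log2 difference of -2.53 (5.79-fold, exact permutation p = 0.333, the smallest possible). The local background beneath the peaks moved with the cell type here as well. Its median was 1.94 and 1.98 times the lowest background of the list in the non-SMC windows, against 1.17 and 1.09 over all peaks of those lists, and 1.25 and 1.04 in the SMC windows, against 1.35 and 1.09. Its part in the result was not tested.

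In 6 of the 10 genes both non-SMC lines had more peaks than both SMC lines, namely *Ccl2*, *Ccl7*, *Cxcl1*, *Cxcl5*, *Csf1* and *Lif*. This was so for 14.1% of all protein-coding genes. In none of the 10 did both SMC lines have more, which 13.5% of all genes did. The mean of the non-SMC lines exceeded that of the SMC lines by a median of 5.25 peaks over the 10 genes, from 0.5 at *Il1a* to 11.5 at *Cxcl5*, whereas the median over all genes was 0, with the central 90% of genes between -6 and 5.5.

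Counting strong peaks alone, the non-SMC lines were above the SMC lines in 8 of the 10 genes, all but *Cxcl12* and *Lif*. The background was also higher here, 27.3% of all genes, and 0 of the 10 genes went the other way, as 3.29% of all genes did. With peaks of q up to 0.05 all 10 genes had more in both non-SMC lines, against 25.8% of all genes.

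**Figure D1:**
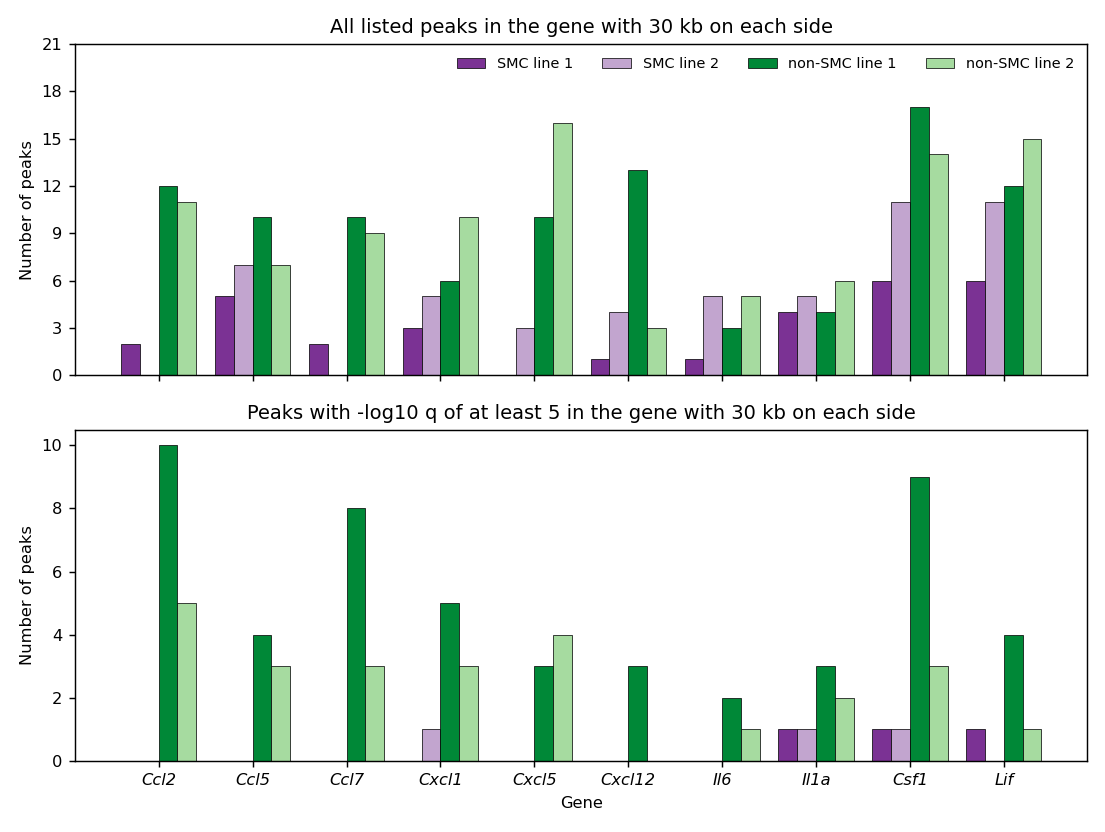
Number of peaks (vertical axis) within 30 kb of each of the 10 genes (horizontal axis) in each of the 4 libraries, for all listed peaks (top) and for strong peaks (bottom), with 1 bar per library. At *Ccl2* the non-SMC bars reach 12 and 11 against 2 and 0 in the SMC lines, and in the lower panel no SMC line exceeds 1 strong peak at any gene.

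Among the CC chemokines, *Ccl2*, which draws monocytes through the receptor Ccr2, showed the clearest separation (chr11:82035571-82037453, + strand). Its window had 2 and 0 peaks in the SMC lines and 12 and 11 in the non-SMC lines, of which 10 and 5 in the non-SMC lines were strong and 0 in the SMC lines. A smaller difference was found at 98.7% of all genes. Of 17 regions in the window 8 were non-SMC-only and none was SMC-only. One lay over the TSS (chr11:82035354-82035660, with the summit 0.07 kb upstream, in an intron of the neighboring gene *Gm17268*), where the pileup, the number of reads stacked at the summit, was 50 and 17 in the non-SMC lines. Pileups are read numbers of their own library and were not scaled between libraries. Others lay 28.3 kb upstream, with pileups of 46 and 27, and 20.2 kb upstream, with pileups of 69 and 26.

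*Ccl7* lies next to *Ccl2* and encodes a related attractant of monocytes (chr11:82045712-82047525, + strand). It had 2 and 0 peaks in the SMC lines and 10 and 9 in the non-SMC lines, and 6 of its 7 non-SMC-only regions are also counted for *Ccl2*. The region over its TSS (chr11:82045539-82046098) had pileups of 26 and 8 in the non-SMC lines. The strongest shared region was the distal one whose sequence is shown, 31.6 kb from the TSS of *Ccl2* and 21.4 kb from that of *Ccl7*, where the non-SMC lines had fold enrichments of 12.57 and 7.24 and pileups of 96 and 15. Of all TSSs the nearest to it was that of *Ccl11*, another chemokine gene of the cluster, so its assignment to *Ccl2* or *Ccl7* rests on the window alone. SMC line 2 listed no peak anywhere in the windows of *Ccl2* and *Ccl7*.

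*Ccl5*, a chemokine for T cells and other leukocytes (chr11:83525778-83530518, - strand), had similar numbers of peaks in both types, 5 and 7 in the SMC lines and 10 and 7 in the non-SMC lines. Its strong peaks lay in the non-SMC lines alone, with 4 and 3 against 0 and 0. The region 4.4 kb upstream (chr11:83534489-83535325) was open in all 4 libraries, but its pileup was 6 and 7 in the SMC lines and 76 and 23 in the non-SMC lines. Ranked by fold enrichment within the list, it stood at percentiles of 73.3 and 46.6 in the SMC lines and 97.5 and 95.1 in the non-SMC lines. A non-SMC-only region in the intron of *Ccl5*, 2.3 kb from the TSS, had pileups of 18 and 11, and the distal region shown above, in an intron of the neighbor *Heatr9*, 24 and 13. The window also holds *Taf15*, in an exon of which each SMC line had a peak that was not strong.

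*Cxcl1* and *Cxcl5* encode CXC chemokines that attract neutrophils through Cxcr2. *Cxcl1* (chr5:90891241-90893115, + strand) had 3 and 5 peaks in the SMC lines and 6 and 10 in the non-SMC lines. Its promoter held a peak in 3 libraries, with a pileup of 10 in SMC line 2 (-log10 q of 3.433) and of 14 and 31 in the non-SMC lines (-log10 q of 6.306 and 20.63), and none was listed in SMC line 1. *Cxcl1* also held the clearest region in the other direction, an SMC-only region 31.9 kb downstream of the TSS (chr5:90922899-90923388) with pileups of 6 and 16, at percentiles of 78.7 and 91.8 in the SMC lists. The TSS nearest to it was that of *Mthfd2l*, not of a chemokine gene. The window also holds *Cxcl2*, another gene for a neutrophil attractant.

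*Cxcl5* (chr5:90759360-90761624, + strand) had 0 and 3 peaks in the SMC lines and 10 and 16 in the non-SMC lines, the widest difference of the 10 genes, and 98.9% of all genes had a smaller one. Of its 18 regions 7 were non-SMC-only, and 0 SMC-only. The region 13.7 kb upstream had pileups of 25 and 11 in the non-SMC lines. At the TSS the non-SMC lines had peaks with pileups of 13 and 14, and SMC line 2 had a weaker one next to it with a pileup of 8. The window also holds the chemokine genes *Ppbp*, *Pf4* and *Cxcl3*, to which some of these peaks may be nearer.

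*Cxcl12*, the ligand of Cxcr4 (chr6:117168535-117181367, + strand), did not separate the types. It had 1 and 4 peaks in the SMC lines and 13 and 3 in the non-SMC lines, so that the excess lay in non-SMC line 1, and in pair 2 the SMC line had 1 peak more. All 3 strong peaks were in non-SMC line 1. Near its TSS, however, 2 non-SMC-only regions were found, 1.4 kb upstream with pileups of 17 and 6 and 0.2 kb downstream with pileups of 17 and 5, all below the strong threshold. Between them SMC line 2 had a weak peak, with a pileup of 6.

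Among the cytokines, *Il6*, which signals through Il6ra and Il6st (chr5:30013114-30019981, + strand), had few peaks, 1 and 5 in the SMC lines and 3 and 5 in the non-SMC lines, and these numbers overlapped. The height of the peak over its TSS did not. This region (chr5:30012602-30013570) was open in all 4 libraries, with a pileup of 4 and 7 in the SMC lines and 54 and 21 in the non-SMC lines. The fold enrichment at its summit was 3.433 and 3.152 in the SMC lists, near the middle of each, and 14.18 and 9.582 in the non-SMC lists, at percentiles of 97.4 and 95.1. A non-SMC-only region 21.1 kb downstream of the TSS (chr5:30033834-30034500), shown above with its AP-1 match, had pileups of 22 and 6.

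*Il1a*, a cytokine of the Il1 family that is released from damaged cells and binds Il1r1 (chr2:129299610-129309972, - strand), differed least, with 4 and 5 peaks in the SMC lines and 4 and 6 in the non-SMC lines. The strongest region of its window (chr2:129296722-129297749) was strong in all 4 libraries. Its pileups were 13 and 23 in the SMC lines and 53 and 23 in the non-SMC lines. The region lies 12.7 kb downstream of the TSS of *Il1a*, with summits 98 to 150 bp from the TSS of the neighbor *Ckap2l*. A region 21.1 kb upstream was non-SMC-only, with pileups of 24 and 28. The promoter of *Il1a* had 1 weak peak, in non-SMC line 2, with a pileup of 3.

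*Csf1*, the growth factor of macrophages (chr3:107741048-107760469, - strand), had 6 and 11 peaks in the SMC lines and 17 and 14 in the non-SMC lines, with 8 non-SMC-only regions. The region over its TSS (chr3:107759936-107760850) was open in all 4 libraries, with pileups of 7 and 10 in the SMC lines and 52 and 14 in the non-SMC lines, and only the non-SMC peaks were strong. The region 15.9 kb upstream, shown above, had pileups of 68 and 21 and no SMC peak. Each SMC line had 1 strong peak, in different places. That of SMC line 2 lay in an intron, 8.88 kb from the TSS, with a pileup of 26, and that of SMC line 1 lay 19.72 kb from the TSS in a region open in all 4 libraries. The percentiles of that region were 91.3 and 12.3 in the SMC lines and 34.8 and 66 in the non-SMC lines.

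*Lif*, a cytokine of the Il6 family that acts through Lifr and Il6st (chr11:4257557-4272514, + strand), had 6 and 11 peaks in the SMC lines and 12 and 15 in the non-SMC lines. The margin over SMC line 2 was 1 peak in non-SMC line 1. Its promoter did not separate the types, with 2 and 1 peaks in the SMC lines and 1 in each non-SMC line, none of them strong. Of its 4 non-SMC-only regions 2 lay in an intron, 3.8 kb from the TSS with pileups of 22 and 14 and 5.6 kb from it with 20 and 16, and the other two beyond the gene, at 34.4 kb with 62 and 13 and at 42.2 kb with 61 and 21. In addition a weak SMC-only region lay at 22.1 kb with pileups of 3 and 8. A region at 36.9 kb had a peak in all 4 libraries and ranked higher in the SMC lists. Its percentiles were 85.7 and 65.6 in the SMC lines and 54.6 and 53.2 in the non-SMC lines. It held the 1 strong SMC peak of the window, in SMC line 1. The highest local background of all 10 windows was found in that of *Lif* in each library. It was 2.79 and 3.26 times the lowest of the list in the SMC lines and 5.9 and 5.2 times in the non-SMC lines, and its part in the count was not tested. The neighbor *Osm*, a related cytokine gene, shares the window.

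**Figure D2:**
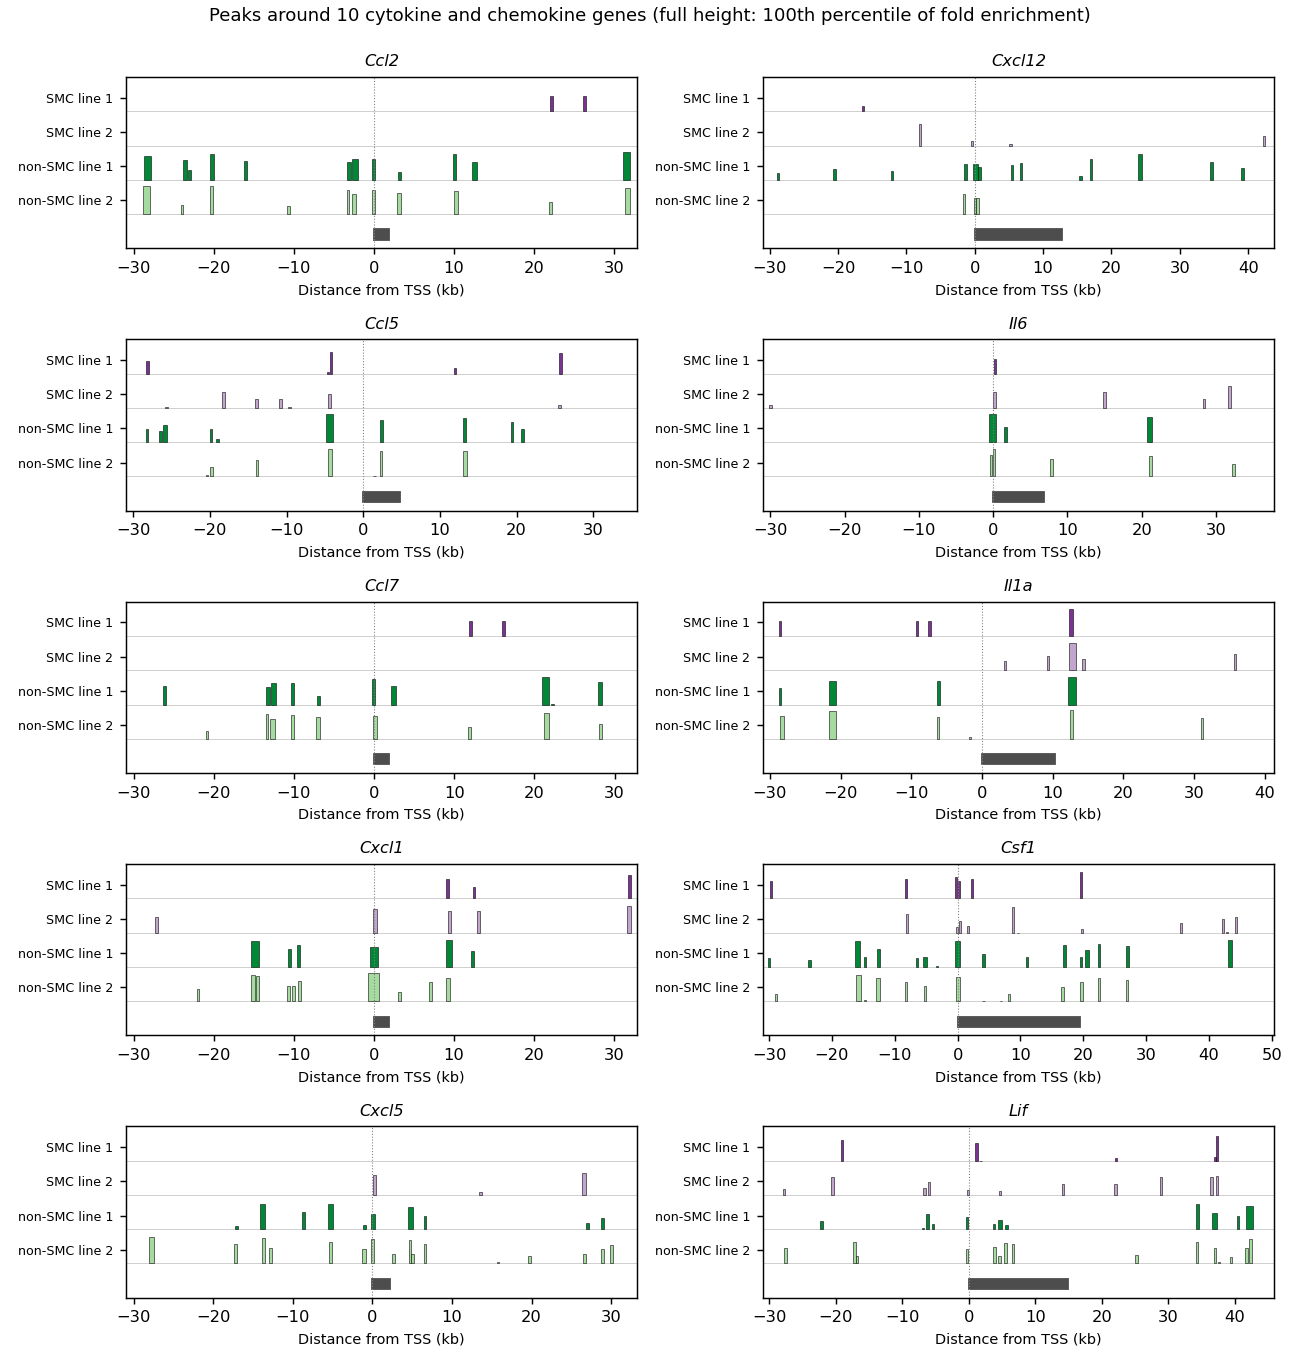
Position of each peak (horizontal axis, kb from the TSS in the direction of transcription) around the 10 genes, with 1 track per library and the gene body as a dark bar below. The height of a peak is its percentile of fold enrichment within its own list, a full track being 100, and the narrowest peaks are widened to be seen. The non-SMC tracks of *Ccl2*, *Ccl7* and *Cxcl5* carry peaks where the SMC tracks have few or none. At *Il1a* all 4 tracks share the high peak 12.7 kb downstream, next to the TSS of *Ckap2l*.

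Ranked within its own list, the highest peak of a window was higher in both non-SMC lines than in both SMC lines for 5 genes, *Ccl2*, *Ccl5*, *Ccl7*, *Cxcl5* and *Il6*, with a window without a peak counted as 0. For all genes the share was 20.7%. No gene of the 10 showed the reverse. At *Il6* the percentiles were 52 and 75.8 in the SMC lines against 97.4 and 95.1 in the non-SMC lines, and at *Ccl5* 73.3 and 54.6 against 97.5 and 95.1. At *Csf1* they lay between 89.7 and 91.3 in all 4 libraries and at *Il1a* between 93.9 and 97.6, so these windows had a high peak in both types. In the *Il1a* window this was the peak next to the TSS of *Ckap2l*. Ranked by p instead, 9 of the 10 genes had the higher peak in both non-SMC lines, against 21.8% of all genes.

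**Figure D3:**
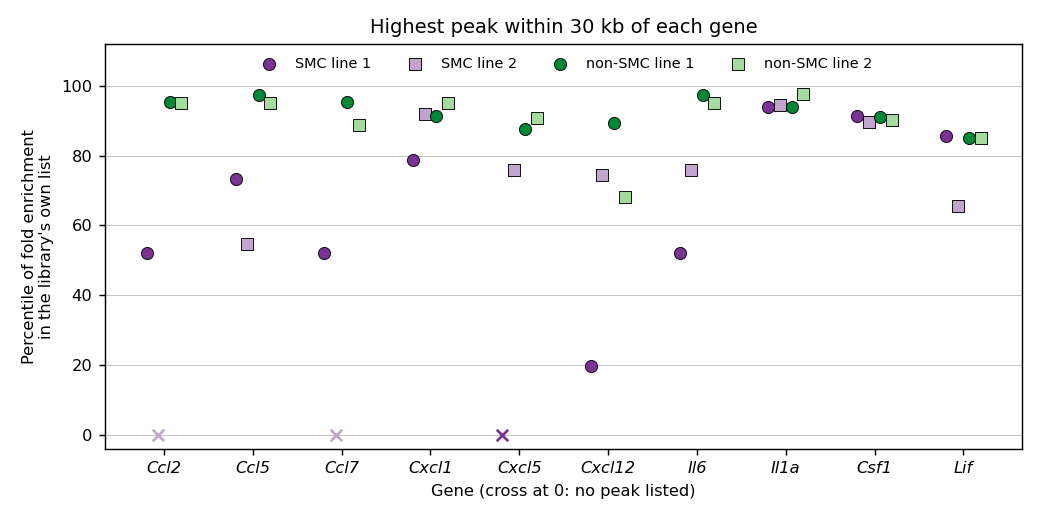
Percentile of fold enrichment, within the list of its own library, of the highest peak within 30 kb of each gene (vertical axis, 100 is the highest peak of the list). Points are the 4 libraries, circles for line 1 and squares for line 2, and a cross at 0 marks a window without a listed peak, as in SMC line 2 at *Ccl2* and *Ccl7* and SMC line 1 at *Cxcl5*.

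The peaks of the 10 windows merged into 167 regions. Of these 39 (23.4%) were non-SMC-only, against 7.33% of all 357570 regions of the genome. SMC-only regions numbered 2 (1.2%), against 4.37% of all regions, and regions with a peak in all 4 libraries 7 (4.19%), against 3.81%. Every 1 of the 10 genes had at least 1 non-SMC-only region, as did 58.1% of all genes, and 2 genes, *Cxcl1* and *Lif*, had an SMC-only region, as did 43.7% of all genes. Among regions of strong peaks 18 of 48 (37.5%) were non-SMC-only, against 20.1% of all. Of these 48 regions 0 were SMC-only, against 6.12% of all, a share at which few would be found among 48. Leaving out non-SMC line 1 or non-SMC line 2 raised the non-SMC-only regions from 39 to 74 each time, and leaving out SMC line 1 or SMC line 2 raised the SMC-only regions from 2 to 34 or 14, since 1 line then set the class.

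The non-SMC-only regions were mostly distal. They held 82 peaks, of which 60 were intergenic, 19 intronic and 3 exonic by their summit, and the median distance to the nearest TSS was 9.41 kb. Being mostly intergenic was not particular to this class. In regions open in all 4 libraries 26 of 34 peaks were intergenic, and in regions of mixed presence 94 of 136. The median distances there were 3.4 and 8.39 kb. Location was not counted over all regions of the genome. For 67 of the 82 the nearest TSS was that of 1 of the 10 genes. Of the 82 peaks 50% were strong, close to the 44.1% of the 34 peaks in regions open in all 4 libraries. In regions of mixed presence 11% of the 136 peaks were strong. Such a region can rest on a single list, whereas the non-SMC-only class needs a peak in both non-SMC lists. The share of strong peaks over all non-SMC-only regions of the genome was not counted.

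At the promoters, taken as the 6 kb centered on the TSS, *Ccl2*, *Ccl5* and *Ccl7* had a peak in both non-SMC lines but none in the SMC lines, against 2.45% of all promoters. None had the opposite pattern, against 3.08%. *Il6*, *Csf1* and *Lif* had a peak in all 4 libraries, which 48.7% of all promoters had. With strong peaks alone, 5 promoters, those of *Ccl2*, *Ccl5*, *Cxcl1*, *Il6* and *Csf1*, were open in both non-SMC lines only, against 5.3% of all promoters. At *Ccl5* all peaks of the 6 kb lay inside the gene, with the strong summits 2.3 and 2.4 kb from the TSS. Over all listed peaks the count was 6 in place of 3 without SMC line 2. With promoters of 2 kb it was 2. A promoter without a listed peak may still hold reads, since the lowest pileup listed was 3 reads in SMC line 1 and non-SMC line 2 and 5 in the other libraries.

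The promoter letters were read from RefSeq on GRCm38.p6, the assembly of mm10, from 250 bases before to 50 after the TSS, for the 6 of the 10 genes in the table used (*Il1a*, *Csf1*, *Il6*, *Cxcl1*, *Cxcl12* and *Lif*). Those of *Cxcl1* and *Il6* are shown, since both had a strong promoter peak in the non-SMC lines alone.
Cxcl1 promoter, chr5:90890995-90891294, + strand: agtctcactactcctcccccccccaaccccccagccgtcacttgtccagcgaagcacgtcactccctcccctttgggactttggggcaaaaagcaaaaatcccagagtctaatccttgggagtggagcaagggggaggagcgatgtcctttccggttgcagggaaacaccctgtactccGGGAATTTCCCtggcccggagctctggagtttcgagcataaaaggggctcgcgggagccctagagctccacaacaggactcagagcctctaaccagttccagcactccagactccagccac
Il6 promoter, chr5:30012864-30013163, + strand: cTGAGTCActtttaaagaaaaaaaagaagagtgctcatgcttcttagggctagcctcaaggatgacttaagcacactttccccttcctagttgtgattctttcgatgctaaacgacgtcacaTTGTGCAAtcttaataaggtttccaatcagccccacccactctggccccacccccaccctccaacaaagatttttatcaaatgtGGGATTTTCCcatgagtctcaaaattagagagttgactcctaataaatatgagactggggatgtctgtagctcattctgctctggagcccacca

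The *Cxcl1* promoter held an NF-kappa-B match at -71 to -62 and another on the shifted letters -70 to -61, counted from the TSS. The *Il6* promoter held AP-1 letters at -249 to -243, C/EBP letters at -128 to -121 and an NF-kappa-B match at -44 to -35. Of the 6 promoters 3 had an NF-kappa-B match (*Cxcl1*, *Il6* and *Csf1*), against 4.51% of all 32851 RefSeq promoters of this length, and 3 had AP-1 letters (*Il6*, *Il1a* and *Lif*), against 5.2%. C/EBP letters were in 1, against 10.8%, and RUNX letters in 1, against 16.8%. TEAD and STAT letters were in 0, against 14.7% and 8.3% of all. The 3 promoters with NF-kappa-B matches are those of the 6 whose strong peaks were found in both non-SMC lines alone. This was seen after both were known and was not tested. *Ccl2* and *Ccl5* also had such strong peaks, but their promoters are not in the table used. The motif matches say nothing of binding.

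In the 39 non-SMC-only regions AP-1 letters lay within 100 bp of the summit in 18, which is 46.2% (95% Wilson interval 31.6 to 61.4%). This share was close to that of all non-SMC-only regions, 46.5%, and above that of all regions of any class, 11.2%. The count varied by gene, for example with all 3 regions of *Ccl5*, 4 of 7 at *Cxcl5*, 2 of 8 at *Ccl2*, 3 of 7 at *Ccl7* and 3 of 8 at *Csf1*, 1 of 4 at *Lif* and the 1 at *Il6*, and none of 2 each at *Cxcl12* and *Il1a*. RUNX letters were in 35.9% of the 39 (29.6% of all non-SMC-only regions), TEAD letters in 20.5% (19.3%), C/EBP letters in 15.4% (11.6%), STAT letters in 7.69% (6.44%) and NF-kappa-B matches in 7.69% (3.26%). Each of these genome-wide shares lies within the Wilson interval of the share at the 10 genes, so with 39 regions no difference from other non-SMC-only regions was detectable at this width. At 250 bp on each side NF-kappa-B matches were in 17.9% of the 39 (8.98 to 32.7%), and the share of all non-SMC-only regions, 6.74%, lay outside that interval. This was not particular to that class. At the same width they were in 11.8% of the regions of mixed presence at the 10 genes (7.14 to 18.8%), against 5.49% of all such regions. Over all 167 regions the share was 15.6% (10.9 to 21.8%), against 5.67%. Within 100 bp it was 5.39% of the 167 (2.86 to 9.92%), against 2.32%, so this difference was not particular to the wider setting. Nor was it particular to NF-kappa-B. At 100 bp AP-1 (20.4% against 11.2%), RUNX (25.1% against 18.4%) and STAT (8.98% against 5.39%) also lay outside their intervals over the 167 regions. C/EBP and TEAD did not. Different motifs overlapped in none of the sequences printed.

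**Figure D4:**
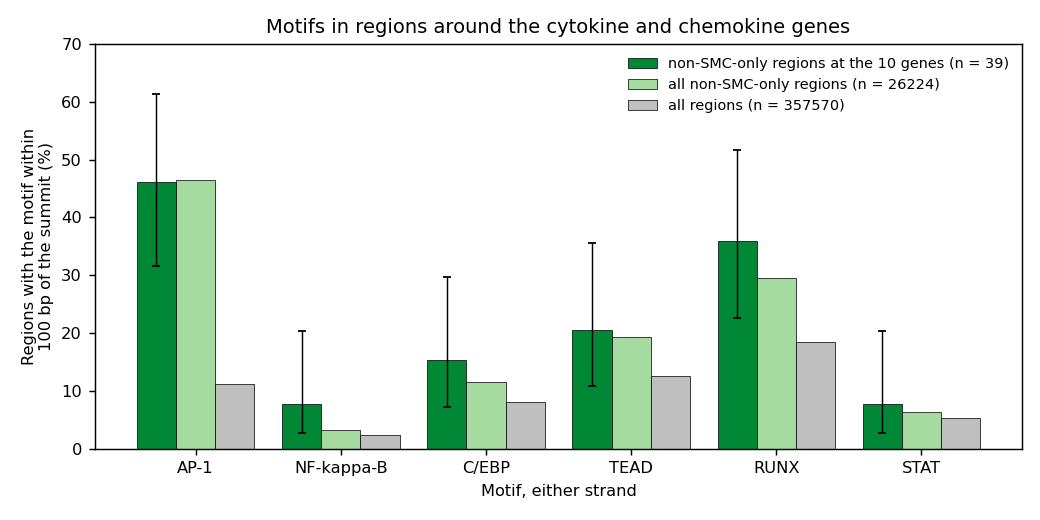
Share of regions with each of 6 motifs within 100 bp of the summit (vertical axis, %), for the 39 non-SMC-only regions at the 10 genes, for all 26224 non-SMC-only regions and for all 357570 regions. Error bars are 95% Wilson intervals for the 39 regions and cover counting error only. The AP-1 bars stand at 46.2%, 46.5% and 11.2%.

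The wider pathway was described by 3 lists. Of 38 other cytokine and chemokine genes 21 had more peaks in both non-SMC lines and 1, *Ctf1*, in both SMC lines. Of the 38, 11 have windows that overlap those above and all 11 had more in non-SMC lines, and of the 27 others 10 did, against the 14.1% of all genes. *Ppbp*, a platelet chemokine next to *Cxcl5*, had the largest difference of this list, with 0 and 3 peaks in the SMC lines and 10 and 15 in the non-SMC lines, and *Ctf1*, a cytokine of the Il6 family, the lowest, with 10 and 10 against 4 and 7. The promoters of *Ccl8*, *Ccl9*, *Ccl12* and *Ppbp*, named after their values were seen, were non-SMC-only and that of *Ctf1* SMC-only.

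Of 14 receptor genes 6 had more peaks in both non-SMC lines and 0 in both SMC lines. *Il1r1*, the receptor of Il1a, had 4 and 9 peaks in the SMC lines and 15 and 21 in the non-SMC lines. *Cxcr4*, the receptor of Cxcl12, had 6 and 11 in the SMC lines and 5 and 6 in the non-SMC lines, and *Il6ra* 16 and 15 against 17 and 8, the lowest differences of this list, and in both the groups overlapped. Of 12 regulators, mainly NF-kappa-B subunits and inhibitors, 2 had more peaks in both non-SMC lines and 1 in both SMC lines, near the shares of all genes. *Nfkb1*, an NF-kappa-B subunit, had 5 and 16 peaks in the SMC lines and 22 and 20 in the non-SMC lines, and *Relb*, another subunit, 14 and 17 against 7 and 6. Of the promoters of these regulators 10 of 12 had a peak in all 4 libraries, against 48.7% of all promoters.

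**Figure D5:**
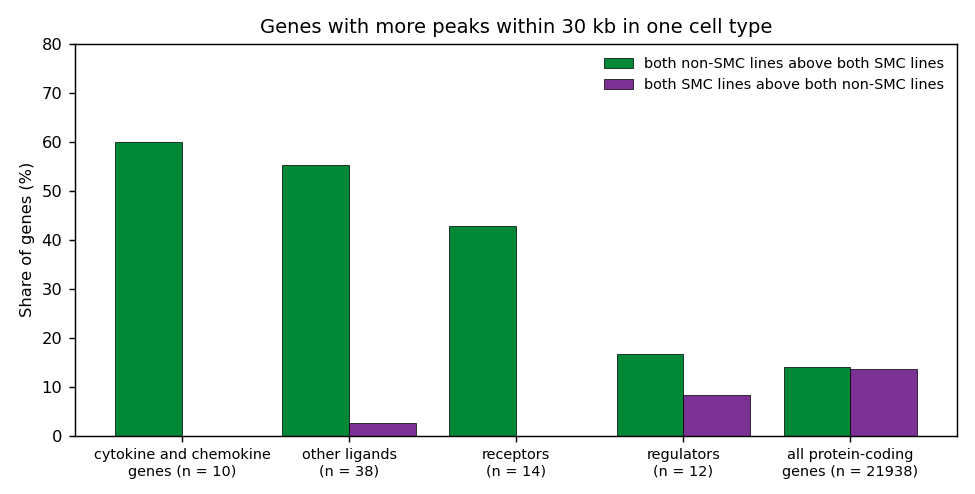
Share of genes (vertical axis, %) with more peaks within 30 kb in both non-SMC lines than in both SMC lines (green) or the reverse (purple), for the 10 cytokine and chemokine genes, 3 lists of the pathway and all 21938 protein-coding genes. The first share is 6 of 10 genes, 55.3% of other ligands, 42.9% of receptors, 16.7% of regulators and 14.1% of all genes, and some windows of the first 2 groups overlap.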

How the data were processed

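ATAC-seq was measured in 4 lines, 1 library each. The authors cut open chromatin with the TruePrep kit, sequenced paired ends, mapped them to mm10 with Bowtie2 2.3.4, sorted with samtools, deduplicated with sambamba and ran MACS2 2.1.1 on each library, lines not pooled. Peak-calling settings are not given in the sources used here. The deposited lists give, at each summit, the fold enrichment (a ratio of pileup to local background of the same library), and the -log10 p-value and -log10 q-value as the authors' caller wrote them. These depend on depth, so peaks were ranked within lists, and differences in peak number can also reflect depth. The lists do not give the depth of each library. The paper states total ATAC-seq reads by cell type only, more for SMC than for non-SMC.

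Peaks off chromosomes 1 to 19, X and Y, 61 to 85 per list, were dropped, and the rest matched to GENCODE M21 genes. Overlap of 1 base joined peaks into regions. Pileup and background were recovered from fold enrichment and p (within 1%), and tested on simulated data, as were merging and motif search. Peaks per 1000000 of the list were compared by an exact permutation test over libraries. Everything else is a count beside the share of all genes or regions, with no test. Lines with the same number are called paired in the design text, and the replicate block was an alternative.

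All 10 genes were named, with protein-coding genes in their windows and, from each list of the pathway, those with the highest and lowest difference. The genes, lists and motifs were chosen with earlier results of these data known. Alternatives were stricter q, equal list lengths, windows, overlaps, promoter widths, motif widths and each library left out. One further marker gene and one further region sequence are not reported here. Tools were bedtools 2.31.1, samtools 1.23.1, pysam 0.24.0 and, in Python 3.11.15, pandas 2.3.3, scipy 1.17.1, numpy 2.4.6 and matplotlib 3.10.9.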

Additional observations from a re-analysis of the deposited data

Results flagged for a closer look

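*Cxcl12* drew attention because its 2 line pairs moved in opposite directions. The number of peaks in its window, SMC minus non-SMC, was -12 in pair 1 and 1 in pair 2. With 1 library per line the difference between the pairs was not tested.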

How the results depend on the processing

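Of 82 alternative values 57 stayed close to the reported ones (the same sign for the log2 difference, counts within 1.5 times, motif shares within the Wilson interval) and 25 moved past this. A reversal was defined for the log2 difference alone, which kept its sign in all 10 of its alternatives. Counts and motif shares could only stay or move. The log2 difference of peaks per 1000000 lay between -2.53 and -0.992 in every alternative. The mean within paired lines (replicate block) was -1.18, the same by construction. With a -log10 q of at least 5 there were 18 non-SMC-only and 0 SMC-only regions and 5 non-SMC promoters. With q up to 0.05 there were 1 SMC-only region, 10 genes with more peaks in non-SMC lines and 5 promoters. With 91057 top peaks per list, or regions nearest to 1 of the 10 TSSs, 1 SMC-only region remained. With 10 kb flanks there were 22 and 1 non-SMC-only and SMC-only regions, with 100 kb 82 and 6, and with 50% reciprocal overlap 25 non-SMC-only regions. Ranked by p, 9 highest peaks were higher in non-SMC lines. Leaving out 1 library gave 40 to 74 non-SMC-only regions (74 without non-SMC line 1 or 2), 2 to 34 SMC-only regions (34 without SMC line 1, 14 without SMC line 2), 3 to 6 non-SMC promoters (6 without SMC line 2) and 6 to 9 genes with more non-SMC peaks. Within 50 bp of the summit the motif shares were 25.6% for AP-1, 2.56% for NF-kappa-B, 5.13% for TEAD and 2.56% for STAT, and within 250 bp 43.6% for TEAD, 59% for RUNX and 17.9% for NF-kappa-B, for which alone the share of all non-SMC-only regions, 6.74%, lay outside the Wilson interval. C/EBP moved from 15.4% to 7.69% at 50 bp. Stricter thresholds, narrower windows and fewer libraries change counts by their construction. Reciprocal overlap was not run for peak numbers and promoters, which need no overlap between libraries. Few reads at a summit, from 3, limit the weak peaks.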
